A study of Mus musculus with 8 samples.

Results

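Broad p53 regions shared by all libraries were stretches of at least 1000 bp in which a p53 peak was called in both control and both bleomycin-treated libraries of mouse alveolar organoids. Overlapping peaks of the 4 libraries (at least 1 bp in common) were joined. A joined region was kept when it held a peak of every library, when it measured at least 1000 bp from its smallest start to its largest end, and when it overlapped none of the 915 intervals that the authors listed as more strongly bound after bleomycin. Of 63268 joined regions, 26316 were shared by all 4 libraries and 3772 met all criteria (5.96% of all joined regions and 14.3% of the shared ones). They were read beside the 22258 shared regions under 1000 bp outside the enriched list. A further 87 shared regions of at least 1000 bp overlapped the enriched list and were left out.

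Chromatin immunoprecipitation and sequencing (ChIP-seq) with the rabbit antibody D2H9O against p53 was carried out on alveolar organoids of *wild-type* mice. The organoids were grown from alveolar type 2 (AT2) cells sorted as EPCAM+ MHCII+ CD31- CD45- cells, and the mice of the study were males of 8 to 12 weeks. CTRL organoids (2 libraries) received DMSO for 24 h and BLM organoids (2 libraries) received 100 μM bleomycin for 24 h, and all were fixed with formaldehyde and DSG. The material came from 2 mice, and which libraries share a mouse was not given. Organoids hold AT2 cells and cells derived from them, and since ChIP-seq measures no expression, the cell identity could not be checked in these data.

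p53 is a transcription factor that is stabilised when DNA is broken, binds DNA as a tetramer at pairs of a decamer motif, and raises transcription of genes for cell cycle arrest, DNA repair and apoptosis. Bleomycin breaks DNA strands. In the lung, AT2 cells make surfactant and act as progenitors of the gas-exchanging type 1 cells, and damage to them is held to contribute to fibrosis. Many promoters of widely used and of rapidly inducible genes lie in CpG islands, stretches rich in G, C and CG dinucleotides.

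Width chose these regions, so their widths, ranks and peak numbers are descriptions and were not tested. With 2 libraries a condition, the smallest two-sided p of an exact permutation test is 0.333, so none was run. Read counts were not used here and the depth of the libraries is unknown. The lists held 50430 and 48743 peaks in CTRL and 39577 and 41451 in BLM, and CTRL peaks were longer in broad and in shorter shared regions, so the regions under 1000 bp are described beside them.

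The promoters below are those of the 4 widest broad regions that held the transcription start site (TSS) of a gene with a single start in the RefSeq promoter table, and are shown for their base composition. They are the 250 bases before the RefSeq start on GRCm38.p6, at chr13:51846425-51846674 for *Gadd45g*, chr13:5861239-5861488 for *Klf6* and chr10:13966129-13966378 for *Hivep2* (plus strand), and at chr2:75704664-75704913 for *Nfe2l2* (minus strand). These starts, on another build, were not matched to the implied TSS used further on. Capitals mark the GC box GGGCGG on either strand, which Sp1 family factors bind.
Gadd45g: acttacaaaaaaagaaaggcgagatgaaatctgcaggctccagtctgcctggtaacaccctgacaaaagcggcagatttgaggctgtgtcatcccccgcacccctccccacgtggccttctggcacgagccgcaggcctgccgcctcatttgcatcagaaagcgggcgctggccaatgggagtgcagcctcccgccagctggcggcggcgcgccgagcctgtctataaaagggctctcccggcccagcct
Klf6: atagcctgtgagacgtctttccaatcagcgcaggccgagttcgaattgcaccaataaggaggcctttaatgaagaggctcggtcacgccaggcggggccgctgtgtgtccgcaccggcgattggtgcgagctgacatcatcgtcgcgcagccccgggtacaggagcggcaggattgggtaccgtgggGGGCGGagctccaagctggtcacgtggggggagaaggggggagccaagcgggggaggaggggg
Nfe2l2: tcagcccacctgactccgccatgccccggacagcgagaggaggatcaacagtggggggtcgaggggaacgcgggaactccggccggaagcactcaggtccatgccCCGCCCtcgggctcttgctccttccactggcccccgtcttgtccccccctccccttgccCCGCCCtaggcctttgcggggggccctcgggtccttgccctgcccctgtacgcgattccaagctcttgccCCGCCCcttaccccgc
Hivep2: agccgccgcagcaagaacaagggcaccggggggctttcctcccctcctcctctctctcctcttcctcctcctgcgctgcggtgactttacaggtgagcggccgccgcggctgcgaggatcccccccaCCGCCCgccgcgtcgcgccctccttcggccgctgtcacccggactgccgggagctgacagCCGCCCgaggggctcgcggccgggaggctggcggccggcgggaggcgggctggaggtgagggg

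CG dinucleotides numbered 16 in *Gadd45g*, 21 in *Klf6*, 18 in *Nfe2l2* and 29 in *Hivep2*, against a median of 5 over all 22862 RefSeq promoters. GC boxes numbered 0, 1, 3 and 2 in the same order, and none of the 4 windows held a p53 decamer. Over the 12 widest regions of this kind the number of CG dinucleotides ran from 9 in *Nkx2-1*, whose GC content of 50.8% lay below the 52.0% of all promoters, to 48 in *Kmt2c*. Among these 12 a p53 decamer was found only in *Ier5*, in 1 copy.

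The broad regions had a median width of 1241 bp (quartiles 1101 and 1495 bp), 275 measured at least 2000 bp and 18 at least 4000 bp. The widest lay at chr19:5888886-5897733 on GRCm39 and measured 8848 bp. Peaks covered 7996 and 7631 bp of it in CTRL and 7769 and 7711 bp in BLM, and the groups overlapped. No TSS with a known position lay inside. The nearest was that of *Frmd8*, 27570 bp away. The neighbours of *Frmd8* in the RefSeq table of GRCm38.p6 are *Neat1*, the long non-coding RNA of paraspeckles, and *Slc25a45*, and no position of either was carried over. A second stretch at the same locus, 1372 bp at chr19:5878741-5880112, was among the 5 members with the greatest gain of length in BLM, with 437 and 220 bp in CTRL and 495 and 1089 bp in BLM. The region of chr3:145351185-145356784 (5600 bp) covered 4628 and 5006 bp in CTRL and 3944 and 3606 bp in BLM, both BLM values below both CTRL values. The region with the most peaks, 21 over the 4 libraries, was the 5054 bp at chr11:86468886-86473939, with 4 and 7 peaks in CTRL and 4 and 6 in BLM. The nearest TSS with a known position there was that of *Tubd1*, a delta tubulin gene, 33068 bp away. Genes without a known position may lie nearer.

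The other regions of the 5 widest lay over *Hes1* and *Gadd45g*. A TSS position was obtained only for genes to which the authors assigned a BLM-enriched region, since the distances in their gene table, set against the region's position, imply where the TSS lies. For 185 genes at least 2 regions implied the same TSS within 10 bp. For 927 more genes with 1 region the strand was taken from RefSeq, a choice made after the data were seen. A gene without a position could therefore have a TSS in a broad region that is not counted here. Positions from 1 region and the RefSeq strand include those of *Gadd45g*, *Hivep2*, *Nfe2l2*, *Nkx2-1*, *Etv5*, *Itgb1*, *Itgb6*, *Smad3*, *Fadd* and *Taok3*, described below. Of the 3772 broad regions, 45 (1.19%) lay within 1 kb of a TSS of the 185 genes, against 62 (0.279%) of the regions under 1000 bp. With all 1112 positions, 154 broad regions (4.08%) held a TSS, against 370 (1.66%) of the shorter regions. A longer region has more room to hold a TSS: per Mb of joined width, the broad regions held 29.6 TSS and the shorter regions 29.8. For the 185 genes alone these values were 7.69 and 3.97 per Mb. Of all 1112 positions 13.8% lay in a broad region, and of those of the 185 genes 21.6%.

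*Hes1*, a repressor induced by Notch, had the widest region that held a TSS, 5484 bp at chr16:29880836-29886319. Its covered length was 4328 and 4729 bp in CTRL and 4482 and 5003 bp in BLM, and the groups overlapped. By fold enrichment within a list (percentile 100 is the highest), its top peak stood at 99.1 and 99.0 in CTRL and at 99.5 and 98.7 in BLM. The peaks ran from about 3 kb before the TSS to 2 kb after it in every library. *Gadd45g*, a stress sensor of the GADD45 family, had a region of 5032 bp at chr13:51998792-52003823. It covered 3943 and 3835 bp in CTRL and 4633 and 4630 bp in BLM, both BLM values above both CTRL values. BLM replicate 1 had 2 peaks there, 1 of them 4381 bp long and spanning the TSS, and the other libraries had 4 each.

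*Klf6*, a zinc finger factor of the Krüppel-like family, had 4909 bp at chr13:5910342-5915250. Its covered length was 4546 and 4870 bp in CTRL and 4344 and 4532 bp in BLM, so that the lower CTRL value and the higher BLM value were only just apart. Here each CTRL library had 1 unbroken peak, and the BLM libraries had 2 and 3. *Tgif1*, a corepressor of TGF-beta signalling, had 4628 bp at chr17:71156151-71160778, with 4116 and 4152 bp covered in CTRL and 3479 and 3754 bp in BLM. Its peaks numbered 3 and 2 in CTRL and 4 and 6 in BLM, and the percentile of its highest peak was 96.5 and 95.9 in CTRL and 54.5 and 92.4 in BLM. *Nfe2l2*, the antioxidant response factor Nrf2, covered 2554 and 3212 bp in CTRL and 3552 and 2625 bp in BLM, and the groups overlapped. *Hivep2*, a zinc finger factor, covered 3255 and 2893 bp in CTRL and 3943 and 2692 bp in BLM, again with overlap. *Tgif1*, *Nfe2l2* and *Hivep2* were named after their values were seen, as the next widest with a TSS.

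**Figure D1:**
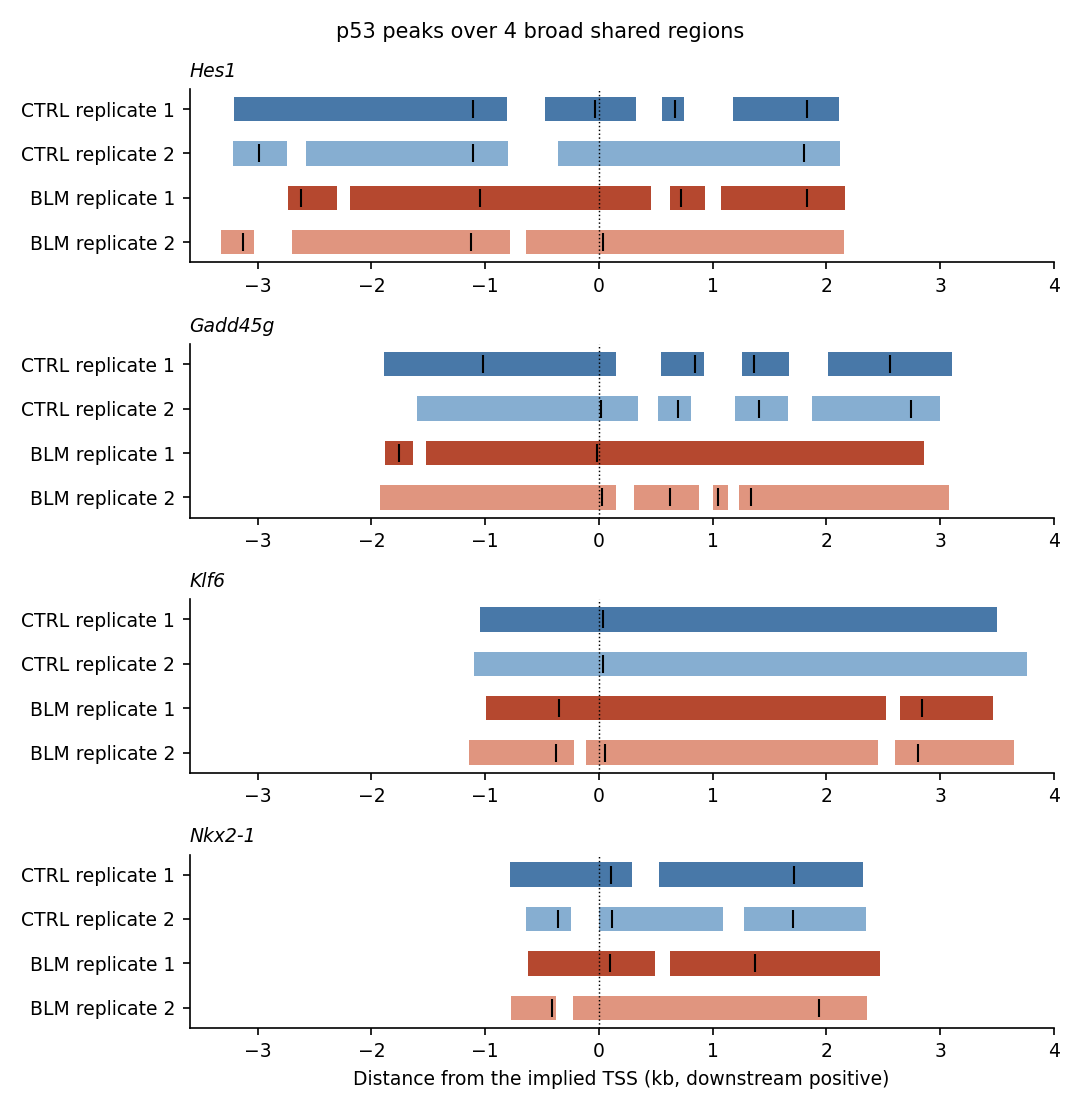
Peaks called in each library over the broad regions of *Hes1*, *Gadd45g*, *Klf6* and *Nkx2-1*. Bars span the peaks, black ticks mark summits, and the horizontal axis is the distance from the implied TSS in kb. Over *Klf6* each CTRL library has 1 peak, where the BLM libraries have 2 and 3, and over *Hes1* the groups overlap in covered length.

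Genes of 5 functional lists that held their TSS in a broad region are described next by role. Of 29 established p53 targets, 16 had a position, and 12 of these lay in shared regions that overlap the enriched list and so were not members. Their absence is set by the rule. The remaining 4 were *Ddit4* and *Plk2* in broad regions, and *Fas* and *Sesn2* in regions under 1000 bp. *Ddit4*, which restrains mTORC1, covered 1547 and 1158 bp in CTRL and 1946 and 1646 bp in BLM, and its percentile was 86.8 and 93.4 in CTRL and 98.5 and 98.3 in BLM. *Plk2*, a polo-like kinase, covered 1606 and 1692 bp in CTRL and 1978 and 1786 bp in BLM. In both genes both BLM lengths lay above both CTRL lengths, the direction seen in 20.0% of the broad regions with a TSS of the 185 genes, to which both belong, and in 4.75% of all broad regions.

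Of 16 epithelial transcription factors 4 had a position, and these 4 lay in broad regions, where 13.8% of all positions lay. With so few genes nothing is read from the share. *Nkx2-1*, the lineage factor of lung epithelium, covered 2867 and 2564 bp in CTRL and 2971 and 2989 bp in BLM, both BLM values above both CTRL values. *Etv5*, an ETS factor that maintains AT2 cells, covered 1494 and 1511 bp in CTRL and 899 and 1357 bp in BLM, both below. *Klf4*, which promotes epithelial differentiation, covered 1210 and 928 bp in CTRL and 1112 and 1235 bp in BLM, with overlap, and *Klf6* was given above. Of 14 immediate early and stress genes 3 had a position, and these 3 lay in broad regions, again beside 13.8% of all positions. *Ier5*, an immediate early gene of the heat shock response, covered 1778 and 1860 bp in CTRL and 2456 and 2164 bp in BLM, with percentiles of 72.7 and 66.3 against 93.4 and 90.4. *Fosl2*, an AP-1 subunit, covered 2059 and 2058 bp in CTRL and 1695 and 1839 bp in BLM, and 1 peak in each CTRL library stood against 3 and 2 in BLM. *Myc*, the growth-promoting factor, covered 1478 and 1470 bp in CTRL and 1474 and 1693 bp in BLM, with overlap.

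Of 19 TGF-beta and integrin genes, 5 had a position and 3 of them held it in a broad region. *Itgb6*, the beta subunit of the integrin that activates latent TGF-beta on epithelium, had a region of 1046 bp at chr2:60503181-60504226. It covered 1046 and 917 bp in CTRL and 444 and 748 bp in BLM, with 1 CTRL peak per library against 2 BLM peaks, and both BLM lengths lay below both CTRL lengths. Its percentile was 55.2 and 78.7 in CTRL and 21.1 and 70.1 in BLM, and these overlapped. Both BLM lengths lay below both CTRL lengths in 51.2% of all broad regions and in 33.8% of those holding a known TSS. *Itgb1*, the beta 1 integrin subunit, covered 953 and 512 bp in CTRL and 1098 and 687 bp in BLM. *Smad3*, which carries the TGF-beta signal to the nucleus, covered 1201 and 864 bp in CTRL and 910 and 892 bp in BLM, with percentiles from 92.9 to 98.2. Both overlapped between groups. *Smad6* lay in a shared region under 1000 bp and *Ltbp2* in no joined region. A list of 22 genes, meant to hold widely transcribed genes and made in part from the symbol prefixes Rpl and Rps, had 9 with a position and 0 in a broad region. The prefixes also took in the kinase gene *Rps6kb1*, the pseudogene *Rpl7a-ps3* and the p53-inducible *Rps27l*. The 5 in shared regions under 1000 bp were *Eef1a1*, *Rpl12*, *Rpl38*, *Rps21* and *Rps6kb1*. The AT2, AT1, fibroblast and immune marker lists had no gene with a position. Of 7 markers of transitional cells, *Areg* and *Cldn4* had a position, both in regions under 1000 bp. A broad region 448 bp from the TSS of *Cldn4*, a tight junction gene, covered 252 and 303 bp in CTRL and 309 and 1002 bp in BLM, and BLM replicate 2 alone set most of this difference.

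Among all broad regions the covered length, the summed length of a library's peaks in a region, had medians of 1074 and 1033 bp in CTRL and 863 and 882 bp in BLM. The condition means were 1054 ± 29.0 bp and 872.5 ± 13.4 bp (SD, n = 2 libraries), farther apart than the replicates of either condition. The median ratio of BLM to CTRL was 0.828, while it was 0.954 between the CTRL libraries and 1.01 between the BLM libraries. In the regions under 1000 bp the means were 434.5 ± 16.3 and 335.5 ± 6.36 bp and the median ratio was 0.809. Shorter peaks in BLM were thus seen in both sets.

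Both BLM lengths lay below both CTRL lengths in 1930 broad regions (51.2%), against 45.3% of the shorter regions, and above them in 179 (4.75%), against 5.62%. The shares differ little, and with the span from first to last peak in place of covered length they were 45.0% and 44.3%. Regions were also chosen by the width in 1 pair of same-numbered libraries and read in the other. Joining and the need for a peak in all 4 libraries still used both pairs, so choice and reading were not fully separate. Chosen in pair 1 and read in pair 2, BLM was shorter in 72.9% of broad and 70.2% of shorter regions (ratio 0.861 and 0.836). Chosen in pair 2 and read in pair 1, these were 79.7% and 76.5% (ratio 0.819 and 0.786). Regions were also split by their mean CTRL percentile. Under 50, both BLM lengths lay below in 40.7% of the broad regions (167 regions) and 33.2% of the shorter ones. From 50 to 75 these shares were 54.0% and 47.4%, and from 75 to 90 they were 52.0% and 52.5%. Above percentile 90 the shares were 50.1% and 50.6%.

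**Figure D2:**
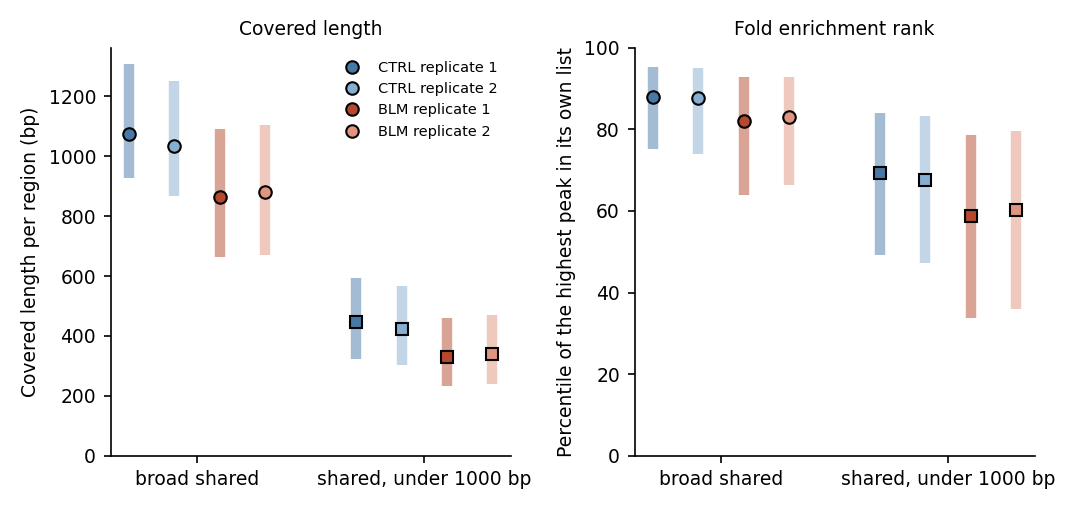
Covered length per region in bp and percentile of the highest peak within its own list, by library. Points are medians, bars run between the quartiles, circles are broad shared regions and squares shared regions under 1000 bp. Both BLM medians lie below both CTRL medians in each set and on each axis.

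Broad regions that held a TSS with a known position were set against all other broad regions. These others may hold a TSS of a gene without a position. Of the 154 with a TSS, both BLM lengths lay below both CTRL lengths in 52 (33.8%) and above them in 16 (10.4%), and the median ratio was 0.916. Of the other 3618, the shares were 51.9% and 4.51%, with a median ratio of 0.823. In the regions under 1000 bp the difference was smaller, with a ratio of 0.835 with a TSS and 0.809 without. For the 40 broad regions that held a TSS of the 185 genes, 9 (22.5%) were shorter and 8 (20.0%) longer in BLM, with a ratio of 0.988. These genes were chosen by the authors for a bleomycin-enriched region nearby, and how far that choice sets this difference was not tested. The members with a TSS were also wider, with a median of 1386 bp, and over all broad regions the median ratio went from 0.810 at 1000 to 1249 bp to 0.913 at 3000 bp and above (43 regions).

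The 16 TSS regions longer in BLM included *Tcf12*, a helix-loop-helix factor (523 and 705 bp in CTRL, 980 and 937 bp in BLM), which was named after its value was seen, together with *Ddit4*, *Plk2*, *Ier5*, *Gadd45g* and *Nkx2-1*. The TSS region with the smallest ratio, 0.462, was that of *Fadd*, the adaptor of death receptors, also named after its value was seen. It covered 1144 and 760 bp in CTRL and 361 and 518 bp in BLM.

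**Figure D3:**
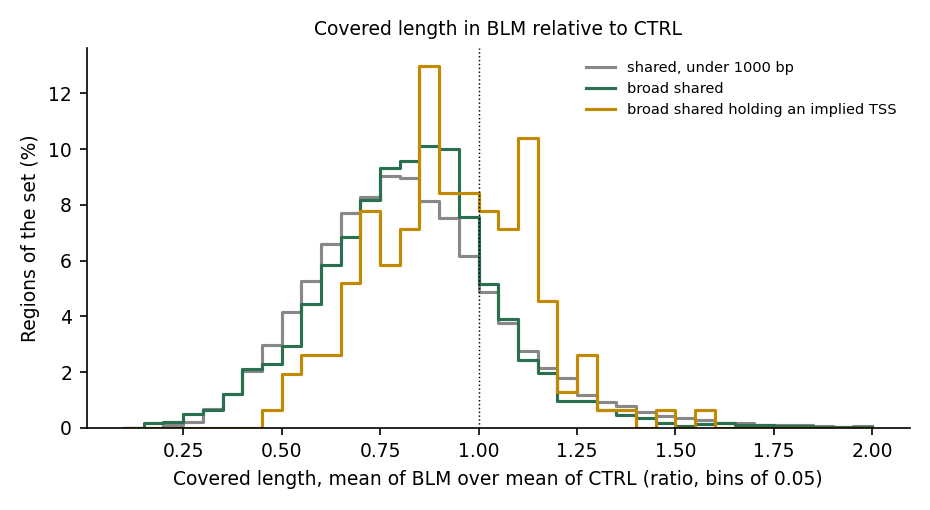
Share of regions in each set by the ratio of covered length, mean of BLM over mean of CTRL, in bins of 0.05. The median is 0.828 in broad shared regions, 0.809 in shared regions under 1000 bp and 0.916 in the 154 broad regions that held an implied TSS.

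None of the 5 regions with the smallest ratio held a TSS with a known position, as was so for most broad regions (3618 of 3772). The smallest ratio, 0.171, belonged to chr10:94952549-94953628, with 1080 and 912 bp in CTRL and 212 and 129 bp in BLM. The next 4, on chromosomes 13, 6, 14 and 11, had ratios of 0.177 to 0.183. At these 5 regions, chosen by their small BLM length relative to CTRL, BLM covered 129 to 278 bp. Their BLM percentiles ran from 0.300 to 57.0, 8 of these 10 values being under 50, and their CTRL percentiles from 24.47 to 77.85. Of all broad regions 14.1% in BLM replicate 1 and 12.1% in BLM replicate 2 ranked under percentile 50. The largest ratio, 2.56, belonged to a region with 483 and 247 bp in CTRL and 984 and 884 bp in BLM, and the region of chr1:154927789-154929365, 46018 bp from the TSS of *Ier5*, was the fourth at 2.21 with 533 and 510 bp against 1256 and 1050 bp. Ratios under 0.5 were found in 269 broad regions (7.13%), against 7.22% of the shorter regions, and ratios over 1.5 in 36 (0.954%), against 1.64%.

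The outer edges of both BLM libraries lay inside those of both CTRL libraries at both ends in 16.2% of all broad regions, at 1 end in 43.5% and at neither end in 40.3%, against 14.4, 43.8 and 41.8% of the shorter regions. Among regions already called shorter in BLM these shares were 29.1, 52.8 and 18.1% in the broad regions and 31.7, 57.6 and 10.7% in the shorter ones. The highest summits lay a median of 47.0 bp apart between the CTRL libraries and 54.5 bp between the BLM libraries. Between same-numbered CTRL and BLM libraries the distance was 54.0 and 52.0 bp, within the range found inside a condition. In the shorter regions the 4 distances were 37.0, 41.0, 40.0 and 39.0 bp.

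The broad regions ranked high in all lists. The highest peak of a region had a median percentile of 88.0 and 87.6 in CTRL and 82.1 and 83.1 in BLM, with means of 87.8 ± 0.244 and 82.6 ± 0.667 (SD, n = 2). In the regions under 1000 bp the means were 68.5 ± 1.21 and 59.5 ± 1.03. A region with several peaks enters with its highest, which favours broad regions. Both BLM percentiles lay below both CTRL percentiles in 32.7% of the broad and 30.5% of the shorter regions, and above them in 9.68% and 11.2%. The difference of the medians, -5.19 percentile points (BLM minus CTRL), was -2.55 with the same number of peaks from each list. Shared regions took 55.8 and 58.2% of the peaks of the CTRL lists and 73.5 and 70.4% of those of the BLM lists.

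A peak of the top 1% of its list by fold enrichment lay in 237 and 237 broad regions in CTRL (6.28% each). In BLM it lay in 82 and 102 (2.17 and 2.70%). Of the shorter regions, 238 and 222 held one in CTRL (1.07 and 0.997%), and 102 and 109 in BLM (0.458 and 0.490%). The BLM lists are shorter and the rule leaves out the regions of the enriched list, so nothing is read from the lower numbers in BLM. In 498 broad regions (13.2%) the highest peak was above percentile 90 in all 4 lists, against 2.63% of the shorter regions. The highest mean percentile was that of chr13:113754375-113755404, with covered lengths of 1030 and 925 bp in CTRL and 696 and 800 bp in BLM. The third highest, at chr5:117257661-117258742, held the TSS of *Taok3*, a kinase of the stress-activated MAP kinase cascade. The percentiles of this region were 99.98 and 99.94 in CTRL and 99.79 and 99.78 in BLM. It covered 899 and 574 bp in CTRL and 930 and 742 bp in BLM, with overlap. The second highest, chr2:136732762-136734321, lay 224244 bp from the TSS of *Jag1*, a Notch ligand, and was shorter in BLM (1312 and 1510 bp against 1005 and 1193 bp). It was 1 peak in each CTRL library and 3 and 2 peaks in BLM.

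More peaks were called per broad region in BLM than in CTRL. The BLM lists were shorter, and the highest peak of a broad region had a lower fold enrichment in BLM. Its median was 14.55 and 14.23 in CTRL and 10.1 and 10.49 in BLM. How far enrichment or depth sets the number of peaks was not tested. The mean number was 1.33 and 1.38 in CTRL and 1.50 and 1.51 in BLM, or 1.35 ± 0.0351 and 1.50 ± 0.00881 (SD, n = 2). In the shorter regions, where there is room for few peaks, it was 1.02 and 1.04. More than 1 peak was called in 29.3 and 33.4% of the broad regions in CTRL and in 42.4 and 42.6% in BLM. Both BLM libraries had more peaks than both CTRL libraries in 336 broad regions (8.91%), against 0.633% of the shorter ones, and fewer in 95 (2.52%), against 0.184%. In 298 broad regions (7.90%) a single peak of each CTRL library faced several peaks in each BLM library, as over *Klf6* and *Fosl2*. The reverse was found in 85 (2.25%). Of the shorter regions, 141 (0.633%) went the first way and 41 (0.184%) the reverse, so the first was the more frequent in both sets.

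In the 1121 broad regions with 1 peak in every library, 46.7% were shorter in BLM and the median ratio was 0.867, against 44.9% and 0.812 in the 20086 shorter regions of this kind. The difference in mean number, 0.150, was 0.0923 with a stricter threshold (-log10 q of at least 5), 0.242 without CTRL replicate 2 and 0.199 without CTRL replicate 1.

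**Figure D4:**
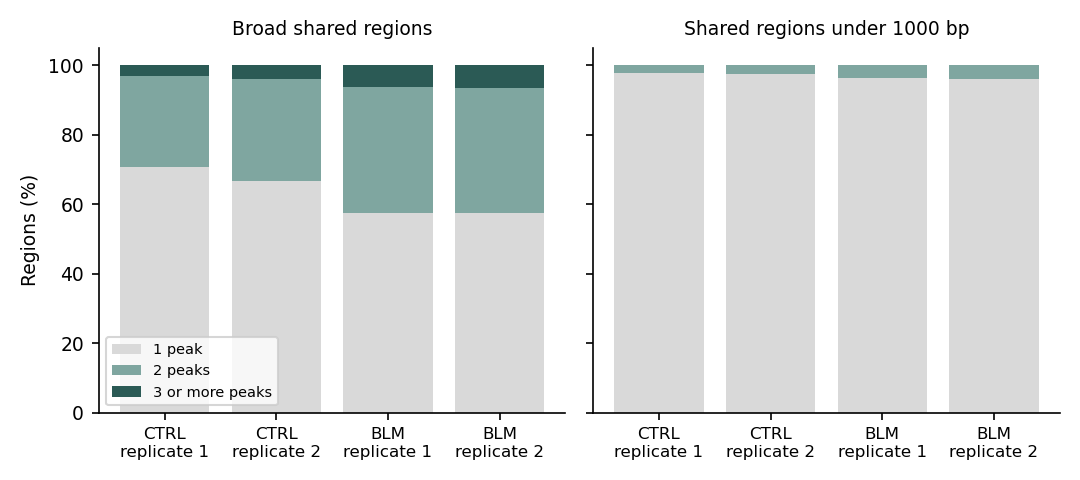
Share of regions with 1, 2 and 3 or more peaks, by library, as stacked bars. In broad shared regions 29.3 and 33.4% have more than 1 peak in CTRL and 42.4 and 42.6% in BLM, and in shared regions under 1000 bp at most 4.13%.

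The number of peaks went up with width in all libraries, from a mean of 1.20 to 1.31 at 1000 to 1249 bp to 2.70 to 3.21 at 3000 bp and above, and both BLM means lay above both CTRL means in each of 5 width classes. The share shorter in BLM was 51.2, 54.5, 47.5, 48.7 and 46.5% from the narrowest to the widest class, and the share longer in BLM was 4.39, 4.65, 4.57, 7.33 and 11.6%. At the threshold itself, 10 broad regions measured exactly 1000 bp and 11 shared regions were 1 bp short of it. The 3 members just inside covered 862 and 735, 696 and 661, and 453 and 687 bp in CTRL, and 835 and 585, 453 and 993, and 898 and 608 bp in BLM. The 3 regions just outside covered 763 and 907, 907 and 928, and 539 and 343 bp in CTRL, and 836 and 696, 710 and 991, and 569 and 602 bp in BLM.

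**Figure D5:**
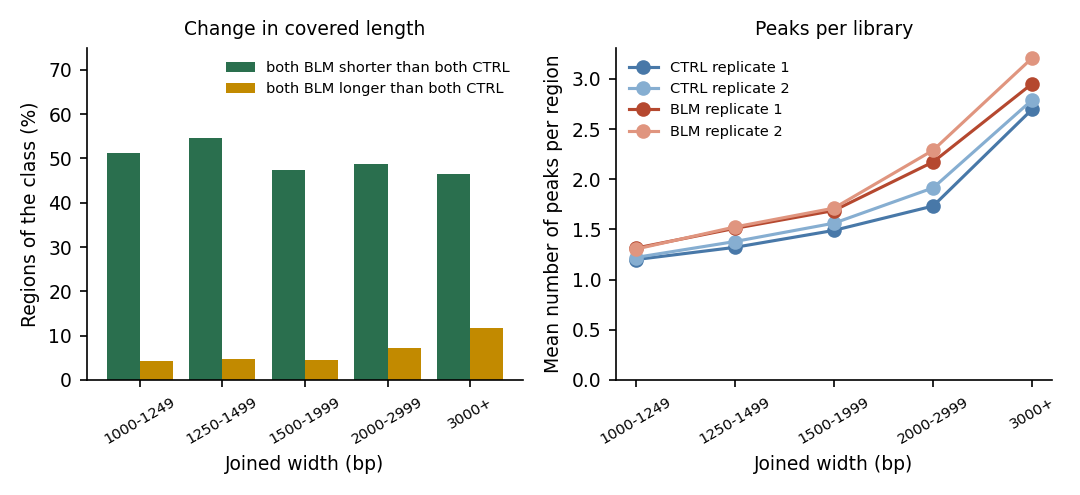
Left, share of broad regions in each class of joined width (bp) whose BLM lengths both lie below (green) or both above (ochre) the CTRL lengths. Right, mean number of peaks per region by library. The last class holds 43 regions, and in it 46.5% were shorter and 11.6% longer in BLM.

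Broad regions made up 12.3 to 16.5% of the shared regions of each autosome and 10.4% of those of the X chromosome. Promoters of genes with a TSS in a broad region were compared where RefSeq gives 1 start per gene (116 of 154 genes). In the 250 bases before the start their median GC content was 66.8% and the median number of CG dinucleotides 22, against 63.2% and 19 in genes with a TSS in a shorter region (294 promoters). Genes with a TSS in no joined region had 54.8% and 7 (327 promoters), and all RefSeq promoters 52.0% and 5. A GC box (GGGCGG, either strand) was found in 79.3% of the promoters of broad regions, in 71.4% of those of shorter regions, in 36.1% of those without a region and in 32.4% of all. The p53 decamer was found in 4.31, 4.42, 6.42 and 7.18% in the same order, and the AP-1 motif TGANTCA in 4.31, 5.44, 7.34 and 6.96%. The TATA box TATAAA stood in 7.76, 5.10, 8.87 and 13.6%. These shares describe the 250 bases only, and the sequence of the broad regions themselves was not used here.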

How the data were processed

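The authors called peaks in each ChIP library separately and deposited 1 list per library. The submitters' processing notes name Trim Galore 0.6.7, Bowtie2 2.5.1, MACS3 3.0.0b1, DiffBind 3.8.4 and edgeR 3.40.2, and the builds mm39 and mm10. For each peak the authors deposited its position, a whole-number score of 10 times the −log10 q, its fold enrichment as a ratio to local background, and −log10 values of p and q. The threshold of the deposited lists was a −log10 q just above 2. The control used in calling is not given in the sources used here, and the 4 input libraries were not analysed here. Peak length depends on depth and background as well as on binding, and reads were not used here. The deposited list of 915 BLM-enriched intervals served to leave regions out, and the deposited gene table, whose distances were computed on mm10, to imply TSS positions on GRCm39. All 1661 region entries of that table carry the position of an enriched interval.

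Groups and replicate numbers were taken from the labels. Peaks sharing at least 1 bp were joined in Python 3.11.15 with numpy 2.4.6 and pandas 2.3.3, and figures drawn with matplotlib 3.10.9. Covered length, percentile by fold enrichment and number of peaks were computed per region and library, and no test was run on them. Joining was tested on simulated lists. Of 1425 genes in the table, 1112 received a TSS. For 140 of the 142 genes with several regions and a RefSeq strand, the implied strand was the same. Promoter sequences are from RefSeq (GRCm38.p6). The named regions are the 5 widest, the 5 highest by mean percentile, the 5 with most peaks, the 5 with the smallest and largest ratio among those shorter and longer in BLM, and 3 on each side of 1000 bp; named genes hold their TSS in these or belong to fixed lists, with exceptions said in the text. The members and lists were chosen with earlier results of these data known. The alternatives were −log10 q ≥ 5, joining at 50% or more of the shorter peak, lists limited to the same 39577 peaks, a width of at least 1500 bp, the enriched regions kept, each library left out, span for length, rank by −log10 q, and the replicate number as a block.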

Additional observations from a re-analysis of the deposited data

How the results depend on the processing

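Of 56 values recomputed under an alternative, 40 differed from the reported value by less than 1.5 times (counts) or less than the SD between numbered pairs, and 16 by more. Of the ratios and differences 0 changed direction. The counts among the 56 have no direction and could not change it. With a width of at least 1500 bp, 932 regions were left, of which 445 were shorter in BLM, the ratio of covered length was 0.865, the BLM minus CTRL difference was -2.90 percentile points and 0.240 peaks per region. With a −log10 q of at least 5 these differences were -6.73 and 0.0923, and with the same number of peaks per list -2.55 and 0.220. By −log10 q the percentile difference was -4.17, and by span the ratio was 0.884. With 1 library left out, the number of broad regions was 2750 to 3489 and the ratio 0.818 to 0.866. The percentile difference was -5.74 to -4.43 and the difference in peaks 0.153 to 0.242. In these settings 1635 to 2339 broad regions (59.45 to 67.46%) were shorter in BLM, against 56.84 to 62.63% of the regions under 1000 bp. The call then sets 2 libraries against 1 and is easier to meet. These counts are therefore not like for like with the reported 1930 (51.2%). Adding the genes with 1 enriched region, an alternative chosen after the data were seen, gave 175 broad regions within 1 kb of a TSS and 154 holding one, against 45 and 40. Unknown depth limits all comparisons of length and of peak number.

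With the replicate number as a block, 2278 broad regions (60.4%) were shorter in BLM in both pairs, against 55.5% of the regions under 1000 bp. In the reported counts the numbers were not taken as pairs, since which libraries share a mouse was not given. The difference between replicates in CTRL and in BLM had a correlation over the 3772 broad regions of -0.0104 for covered length and 0.0469 for percentile. Peak length also depends on depth and background, so these values do not show whether same-numbered libraries share a mouse.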
